A study of Arabis alpina with 19 samples.

Results

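The step from 5 to 7 weeks in the perennial zone of lateral stems was examined in Arabis alpina, a perennial crucifer, with 6 of the 19 libraries of the series. The members were all libraries that the labels place in II_PZ (5 weeks, 3 libraries) and III_PZ (7 weeks, 3 libraries). Each library is strand-marked mRNA sequencing of the first internode of this zone, taken entire from stems at the first and the second node of the main axis. A biological replicate is 12 plants, grown in long days, and the labels give no treatment. All groups carry the pep1-1 allele of perpetual flowering 1, and no other genotype was compared, so the data describe this mutant only. For reference, 4 further groups were read. They were the same internode at 4 weeks (I_PZ, 3 libraries) and 30 weeks (IV_PZ, 3 libraries), and, also at 30 weeks, an annual-zone short internode (IV_AZ_si, 4 libraries) and an annual-zone internode near the inflorescence (IV_AZ_if, 3 libraries).

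PEP1 is the Arabis counterpart of FLC, a repressor of flowering, and plants that lack its activity flower without a cold period. In stems that thicken, the vascular cambium divides to give secondary xylem inwards and secondary phloem outwards, and parenchyma in these tissues can store starch, lipid and protein. Cytokinins, plant hormones derived from adenine, promote cambial division. In A. alpina the lower, perennial part of a lateral stem lives on, while the upper, annual part bears the inflorescence and dies back. The series concerns secondary growth, nutrient storage and cytokinin in the perennial part. The deposited files pair their identifiers with no gene name. Transcripts are therefore given by identifier, no role is stated for any of them, and the labelled tissue was not checked against marker genes.

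The 6 libraries held 21032841 to 24780509 estimated counts over 34220 targets, the transcript models that reads were assigned to. A library is described here by its transcript pool, in TPM, an abundance per unit of effective length scaled to the same total in each library. Pairs of libraries from different ages had a mean of 29.9% of this pool on different targets (27.8% to 31.5% over the 9 pairs). For pairs of the same age the mean was 9.77% at 5 weeks and 7.83% at 7 weeks (3 pairs each). II_PZ replicate 3 stood apart from its group mates, at 10.5% from replicate 1 and 12.4% from replicate 2, against 6.46% between those. It was also the library of II_PZ nearest to III_PZ, at 27.8% to 28.6%, where the other two stood at 30.1% to 31.5%. At 4 weeks, I_PZ replicate 3 differed from its group mates in many of the transcripts described here, and counts of calls against I_PZ are given with and without it. Whole internodes are mixtures of tissues, so fewer cells of a type and less RNA per cell cannot be told apart.

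Between 5 and 7 weeks the majority of the tested targets changed, in both directions and over a wide range of sizes. Of 23528 targets tested, 13561 (57.6%) passed an adjusted p of 0.05 in the quasi-likelihood test of edgeR, which is the meaning of rose, fell and called below. Some targets had the same levels and test values as others and each was counted, so numbers of targets are not numbers of distinct transcripts. In III_PZ 6255 targets rose (26.6%) and 7306 fell (31.1%), each a share of the targets tested. The median size of a called change was 0.89 on the log2 scale, and 7532 called changes were under 2-fold. At least 2-fold changes were 2733 rises (11.6%) and 3296 falls (14%), and at least 8-fold changes were 981 rises (4.17%) and 897 falls (3.81%). On the scale of the TPM, described below, the excess at 2-fold turned, with 3741 rises and 2505 falls. Libraries of the 2 ages did not overlap for 15050 targets (64%). Of the 36 targets named below, the ages overlapped for 3, which were not called. Most of the others were named for being called without overlap, so this is no result about them. Values of single targets are levels in TPM, per unit of length, while log2 fold changes are on the TMM scale of the test.

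**Figure D1:**
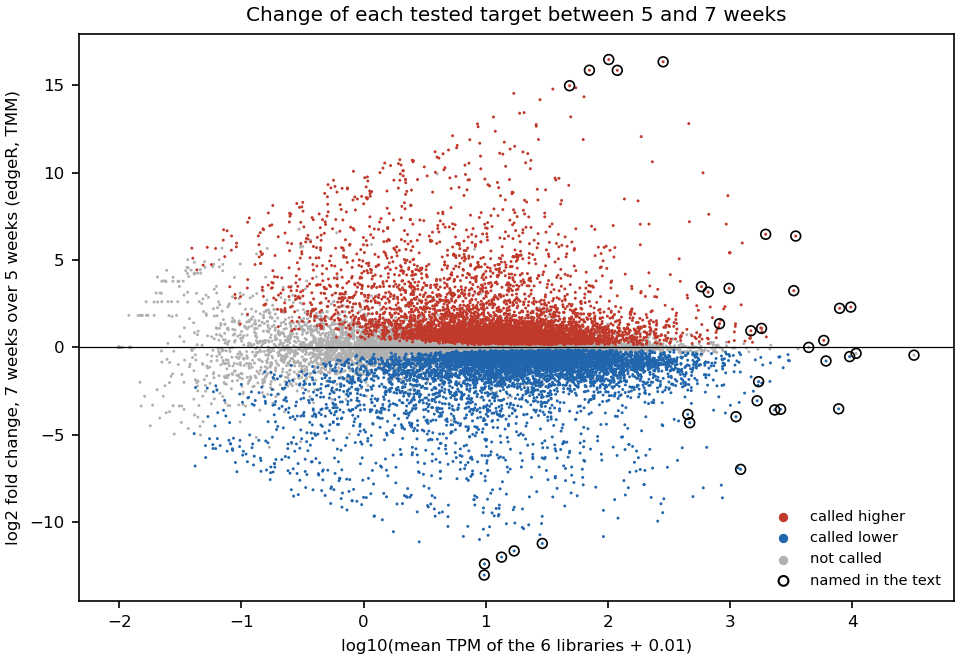
Each point is 1 tested target, with log10 of its mean TPM over the 6 libraries (plus 0.01) on the x axis and its log2 fold change, 7 weeks over 5 weeks, on the y axis. Targets called higher are red, called lower blue and not called grey. Circles mark the targets named in the text. Calls occurred in both directions among targets of low and of high level.

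The balance of rises and falls depended on the level of the transcript and on the scale. With TMM scaling the median log2 fold change of all tested targets was -0.03. With size factors that keep each library on the scale of the TPM it was 0.22, and 8913 targets were called higher and 5182 lower. RLE size factors gave 6690 higher and 6906 lower. Falls outnumbered rises most among abundant transcripts: of 1729 targets with a mean of 100 TPM or more, 360 rose (20.8%) and 896 fell (51.8%). On the TPM scale 505 of these rose and 750 fell, so the excess of falls in this class held on both scales. Between 10 and 100 TPM, 3233 of 11488 targets rose and 4177 fell with TMM, but 4731 rose and 2819 fell on the TPM scale, so there the excess turned. Between 1 and 10 TPM, 2274 of 7857 rose and 1808 fell, and the excess of rises was larger on the TPM scale, at 3183 against 1248.

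**Figure D2:**
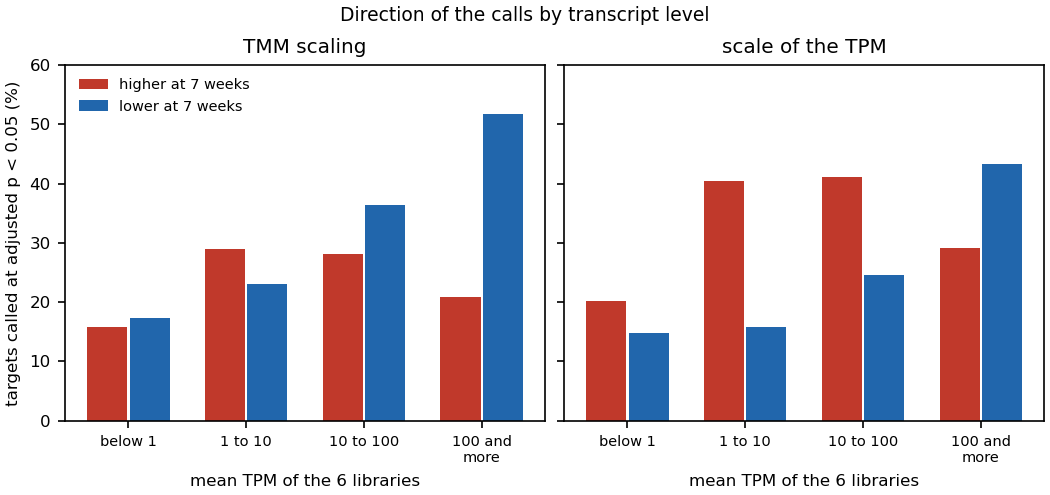
Bars give the percentage of tested targets called higher (red) or lower (blue) at 7 weeks, in 4 classes of mean TPM over the 6 libraries, with TMM scaling on the left and the scale of the TPM on the right. In the class of 100 TPM and more, 51.8% were called lower on the left and 43.4% on the right, and in both panels fewer were called higher.

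A set of transcripts had no count in any library at 5 weeks and was well expressed at 7 weeks. There were 69 such targets that averaged 5 TPM or more in III_PZ, of which 66 were called, with a median level of 17.3 TPM. Their summed level was 4108, 3176 and 3936 TPM in III_PZ replicates 1, 2 and 3. They were chosen for these values, which carry no test. Of all tested targets 26.6% rose, but the 69 were chosen for the values tested, so their calls were largely fixed. At 4 weeks, 12 of them had a count in I_PZ replicate 1 and 10 in replicate 2, but 64 had one in replicate 3. The sum there was 27.0 and 16.4 TPM in the first pair and 533 TPM in replicate 3. The labels give no reason for this difference, and whether I_PZ replicate 3 stands for its labelled stage was not tested, so its 4-week values are read with that limit. At 30 weeks 35 of the 69 averaged 5 TPM or more in IV_PZ, 16 in IV_AZ_si and 10 in IV_AZ_if, without the shares of all targets beside them.

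The 5 largest rises by fold were all of this kind. Aa_G101340.h1 was at 202, 182 and 223 TPM in the 3 libraries of III_PZ and at 0 in those of II_PZ. It was at least 10080-fold higher at 7 weeks, taking 3 counts over the group as the floor and the scaling of the test (adjusted p = 0.00012, edgeR). At 30 weeks the perennial zone held 5.37, 9.76 and 8.30 TPM of it, and no library of the annual zone more than 0.105 TPM. It was thus a transcript high at 7 weeks and low before and after, except for 38.9 TPM in I_PZ replicate 3.

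Aa_G731640.h1 (shared reads, so that its count is split with other targets) had another course afterwards. It was at 571, 537 and 586 TPM in III_PZ and at most 0.00241 TPM in II_PZ, with no whole count there, and was at least 9188-fold higher (adjusted p = 0.00139, edgeR). At 30 weeks it was at 810, 1187 and 947 TPM in the perennial zone, above every library of 7 weeks. The internode near the inflorescence had at most 0.0012 TPM, and the short internode ranged from 1.00 to 81.2 TPM.

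The other 3 of these rises were high at 7 weeks and low in the perennial zone at 30 weeks. Aa_G207260.h1 was at 230, 223 and 261 TPM in III_PZ, at 0 in II_PZ and at 0.135 to 0.348 TPM in IV_PZ, below the annual zone, where it ranged from 3.85 to 38.5 TPM. Aa_G103050.h1 was at 143, 129 and 150 TPM in III_PZ and at most 2.39 TPM in IV_PZ. Aa_G617730.h1 varied more within the group, at 142, 61.1 and 87.3 TPM, and was at most 3.26 TPM in IV_PZ. Against the floor these 3 were at least 6568, 6585 and 3524-fold higher. Both Aa_G207260.h1 and Aa_G103050.h1 have shared reads. At 4 weeks all 3 were at 0 in I_PZ replicates 1 and 2, and at 33.8, 15.2 and 4.76 TPM in replicate 3.

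In the opposite direction, 56 targets that averaged 5 TPM or more at 5 weeks had no count at 7 weeks, and all 56 were called. Of all tested targets 31.1% fell, but these 56 were chosen for the values tested, so their calls were all but fixed. Their median level in II_PZ was 19.1 TPM. In I_PZ 52 of them averaged 5 TPM or more, with or without replicate 3. At 30 weeks 31 of the 56 averaged 5 TPM or more near the inflorescence, 8 in the short internode and 4 in IV_PZ, where 47 had no count in any library. The shares of all targets at these levels are not given here. The number of targets without a count at 7 weeks rests on the libraries at hand: without III_PZ replicate 1 it was 89.

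Of the 5 largest falls, 3 were of transcripts above 10 TPM in every library of 4 and 5 weeks. Aa_G73230.h1 was at 19.9, 16.5 and 21.7 TPM in II_PZ and at 12.2 to 15.2 TPM in I_PZ. It had no count in any library of the other 4 groups and was at least 1088-fold lower at 7 weeks (adjusted p = 2.07e-08, edgeR). Aa_G557010.h1 was at 100, 103 and 100 TPM at 4 weeks, at 56.0, 75.2 and 42.7 TPM at 5 weeks, and at 0 at 7 weeks. Aa_G620360.h1 was at 47.1 to 50.5 TPM at 4 weeks and at 36.05, 50.01 and 16.2 TPM at 5 weeks. Of both, IV_AZ_if had some transcript, at 0.563 to 1.36 TPM and 3.02 to 9.26 TPM, while IV_PZ and IV_AZ_si had none. Their falls were at least 314-fold and 423-fold.

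The other 2 of these falls concerned transcripts that were highest in II_PZ replicate 3. Aa_G601480.h1 was at 9.89, 2.60 and 46.0 TPM in II_PZ and Aa_G505620.h1 at 11.4, 4.48 and 64.8 TPM, and both were at 0 in III_PZ. Neither exceeded 0.133 TPM at 4 weeks. Both were found again in the short internode at 30 weeks, at 1.41 to 13.8 TPM and 0.692 to 9.73 TPM, and had no count in IV_PZ. They were at least 696-fold and 532-fold lower at 7 weeks, but II_PZ replicate 3 held 1407 of the 1764 and 1096 of the 1349 counts at 5 weeks. Without it the bounds were 211-fold and 149-fold, and both remained called.

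Among abundant transcripts, the largest gains in TPM fell on very short targets, whose TPM rests on very small effective lengths. Effective length is the length left for a sequenced fragment to start in, and it was 5.20 to 29.9 bases for the 5 targets that gained most. All targets under 300 bases together took 27.0% to 30.2% of the TPM in II_PZ and 32.3% to 33.4% in III_PZ, from 1.24% to 1.39% of the counts. Aa_G401510.h1 (156 bases, shared reads) was at 1900, 2314 and 4191 TPM in II_PZ and 18062, 12726 and 18873 TPM in III_PZ, and moved from rank 18 to rank 2 by mean level. Its log2 fold change was 2.30 (SE 0.36, edgeR adjusted p = 2.89e-05).

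The other short gainers were likewise far higher at 7 weeks. Aa_G1116930.h11 (123 bases, shared reads) rose from 1633 to 3149 TPM at 5 weeks to 11171 to 14714 TPM at 7 weeks, and Aa_G257590.h1 (138 bases) from 457 to 613 TPM to 5528 to 6571 TPM. Aa_G1109670.h1 (225 bases) was at 49.0, 7.32 and 149 TPM in II_PZ and 8354, 3432 and 8602 TPM in III_PZ, on 54, 9 and 180 counts against 9390, 3827 and 10993. Aa_G950580.h1 (201 bases) was at 31.9, 11.5 and 65.5 TPM and then 4436, 2644 and 4500 TPM. In these last 2 the groups lay far apart although replicates at 5 weeks varied widely. Their log2 fold changes were 6.37 ± 1.02 and 6.47 ± 0.83 (SE; adjusted p = 3.71e-05 and 3.3e-06, edgeR), and DESeq2 gave no test of either. Without II_PZ replicate 3, the highest of its group for both, the log2 fold changes were 7.72 and 7.26. All 5 short gainers were at or below 2121 TPM in IV_PZ.

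Longer targets showed gains of other shapes. These 5, the largest gains among targets of at least 500 bases with reads of their own, were chosen after the short targets had been seen. Aa_G661840.h1 (1467 bases) was at 86.8, 95.8 and 156 TPM in II_PZ and 1228, 1110 and 1284 TPM in III_PZ, a log2 fold change of 3.16 (SE 0.42, edgeR adjusted p = 5.62e-06). It was at 1549 to 1795 TPM in IV_PZ, 992 to 1356 TPM in IV_AZ_si and 355 to 542 TPM in IV_AZ_if. The gain at 7 weeks was thus present in all 30-week internodes, in this order of level in TPM. The difference between IV_PZ and IV_AZ_si was not called (log2 fold change 0.48, edgeR adjusted p = 0.27).

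Aa_G472920.h1, in contrast, was low at 30 weeks. It was at 1034, 1054 and 976 TPM at 5 weeks and 2608, 2494 and 2647 TPM at 7 weeks, with replicates close together, and had a log2 fold change of 1.09 (SE 0.16, edgeR adjusted p = 1.12e-05). In IV_PZ it was at 165 to 197 TPM, below the 4-week level of 1035 to 1174 TPM. Aa_G171140.h1 was at 369, 369 and 471 TPM and then 1251, 1182 and 1256 TPM, and at 518 to 647 TPM in IV_PZ. Aa_G186250.h1 went from 756 to 1070 TPM to 1852 to 2271 TPM and stayed at 1572 to 2179 TPM in IV_PZ. Aa_G87790.h1, abundant at every age, went from 3902 to 5174 TPM to 6763 to 7486 TPM, a log2 fold change of 0.40 (SE 0.08, edgeR adjusted p = 0.000324).

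Among the targets with at least 50 TPM already at 5 weeks, the largest fold rises after Aa_G1109670.h1 were those of Aa_G269550.h1 and Aa_G438760.h1. Aa_G269550.h1 (192 bases) was at 65.9, 76.5 and 102 TPM and then 1204, 664 and 1373 TPM. Aa_G438760.h1 (336 bases) was at 96.8, 72.6 and 265 TPM in II_PZ, highest in replicate 3, and at 2034, 1618 and 1786 TPM in III_PZ. Its level was higher still in IV_PZ, at 8695 to 10510 TPM, while the internode near the inflorescence stood at 132 to 462 TPM. The log2 fold change from 5 to 7 weeks was 3.38 ± 0.84 (SE; adjusted p = 0.0022, edgeR), and 4.18 without II_PZ replicate 3.

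Large falls also occurred among the most abundant transcripts. Aa_G253980.h1, the target with the second highest mean at 5 weeks, was at 14501, 13992 and 13406 TPM in II_PZ and at 1679, 1310 and 1361 TPM in III_PZ. Its log2 fold change was -3.52 (SE 0.17, edgeR adjusted p = 8.06e-11). At 30 weeks the zones stood apart, with 1678 to 2134 TPM in IV_PZ, 6885 to 10354 TPM in IV_AZ_si and 18550 to 23062 TPM in IV_AZ_if.

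Aa_G269070.h1 and Aa_G98170.h1 had the same order of the 30-week groups. Aa_G269070.h1 went from 4764, 5124 and 4168 TPM to 516, 404 and 511 TPM, and Aa_G98170.h1 from 1988, 2294 and 1931 TPM to 194, 120 and 156 TPM. Their levels in IV_PZ were 126 to 189 TPM and 4.19 to 8.28 TPM, below those of 7 weeks, while IV_AZ_if held 4462 to 5189 TPM and 2605 to 3161 TPM. Aa_G337330.h1 likewise went from 753, 888 and 995 TPM to 53.0, 52.0 and 53.0 TPM and was at 1.81 to 13.3 TPM in IV_PZ and 1251 to 1652 TPM in IV_AZ_if. Aa_G220660.h1 fell from 2546, 2594 and 2696 TPM to 745, 809 and 843 TPM, a smaller step with a log2 fold change of -1.96 (SE 0.12, edgeR adjusted p = 9.05e-10).

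Of the other abundant falls, Aa_G64610.h1 shared that order and the rest did not. Aa_G137960.h1 went from 3062, 3212 and 2437 TPM to 504, 340 and 398 TPM, and at 30 weeks it was lowest in the short internode, at 10.97 to 29.3 TPM, against 63.6 to 89.9 TPM in IV_PZ. Aa_G495040.h1 went from 825, 850 and 813 TPM to 74.7, 57.9 and 74.4 TPM and was above that in IV_PZ, at 135 to 150 TPM. Aa_G64610.h1 (243 bases) went from 2728, 2876 and 1621 TPM to 33.9, 12.0 and 21.5 TPM and had no count in IV_PZ. Aa_G499040.h1, which shares reads, was high only in II_PZ among the young groups, at 3747, 2544 and 6300 TPM against 223 to 283 TPM in I_PZ and 330 to 576 TPM in III_PZ. It was nearly absent from IV_PZ, at 0 to 2.95 TPM, and abundant in both annual internodes, at 9480 to 12623 TPM. Aa_G117410.h1 had a smaller fall, from 6025 to 8803 TPM to 4637 to 5246 TPM.

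**Figure D3:**
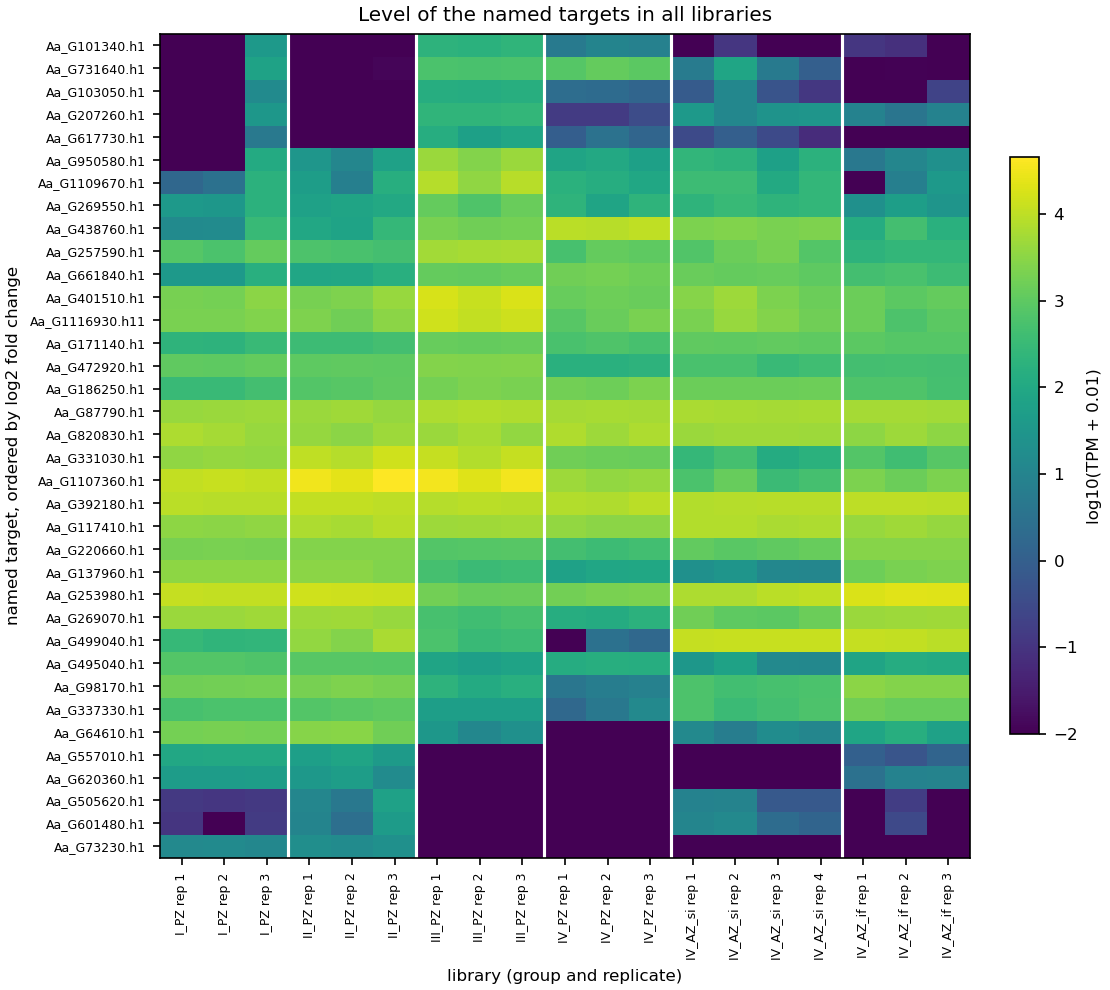
Rows are the 36 targets named in the text, ordered by log2 fold change from 5 to 7 weeks, and columns are the 19 libraries by group. Colour is log10 of TPM plus 0.01, so the darkest cells are levels at or near 0. The top rows are bright at 7 weeks and in I_PZ replicate 3 but not in the other libraries of 4 and 5 weeks, and the bottom rows are dark at 7 weeks and in IV_PZ.

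Some of the most abundant transcripts were not called or changed little. Aa_G1107360.h1 (165 bases) ranked first at both ages, at 32793, 24165 and 44936 TPM in II_PZ and 33585, 21575 and 34172 TPM in III_PZ, and the groups overlapped. It was not called, with a log2 fold change of -0.45 and a 95% interval of -1.09 to 0.20 (adjusted p = 0.261, edgeR). Aa_G331030.h1 was at 7949 to 14945 TPM and 7476 to 11837 TPM, with an interval of -1.09 to 0.40. For Aa_G820830.h1 the interval was -0.44 to 0.44, so a 2-fold change lies outside it. Aa_G392180.h1 was at 9551 to 10860 TPM and 8175 to 9131 TPM, and fell by 0.53 ± 0.10 (SE; adjusted p = 0.000154, edgeR). That call was lost in limma-trend on log2(TPM + 1), where the value was -0.27 (limma adjusted p = 0.0742).

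In all, 48 of the 100 most abundant targets were the same at both ages. Of the 100 at 5 weeks, 48 had fallen and 4 had risen by at least 2-fold at 7 weeks, and 10 had left the first 1000. Of the 100 at 7 weeks, 35 had risen and 4 had fallen by at least 2-fold, and 17 had been outside the first 1000. Over all tested targets 11.6% rose and 14% fell by that much, but choosing targets for a high level at one age itself favours a lower level at the other, so nothing is read from these counts. Taken anew in each library, its own 100 most abundant targets took 24.0% ± 1.8 of the TPM at 5 weeks and 24.4% ± 1.5 at 7 weeks (SD, n = 3 each). The difference lay within the spread of replicates (exact permutation test, two-sided p = 0.9). The sign of that difference turned among targets of at least 300 bases (21.9% and 19.02%) and without shared reads (29.5% and 26.9%). The number of targets that together held the upper 50% of the pool was 803, 858 and 708 at 5 weeks and 884, 988 and 891 at 7 weeks. These values did not overlap, and the exact two-sided p was 0.1, the smallest that 3 against 3 can give. A count was found for 24005 ± 274 targets at 5 weeks and 24510 ± 565 at 7 weeks (SD, n = 3 each; exact permutation test, p = 0.3).

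The targets that changed most between 5 and 7 weeks were then followed into libraries that had not chosen them. The 2733 that rose by at least 2-fold took 3.44% ± 0.65 of the TPM at 5 weeks and 19.2% ± 1.0 at 7 weeks, the values that chose them (SD, n = 3 each). In I_PZ they took 2.65%, 2.60% and 4.14% in replicates 1, 2 and 3. In IV_PZ they held 15.4% to 16.3%, in IV_AZ_si 8.56% to 11.1% and in IV_AZ_if 4.47% to 4.86%. The 3296 that fell by at least 2-fold took 30.9% ± 2.0 at 5 weeks and 9.53% ± 0.07 at 7 weeks (SD, n = 3 each). They held 30.8% to 31.8% in I_PZ, 8.06% to 8.40% in IV_PZ, 17.7% to 21.8% in IV_AZ_si and 32.9% to 33.6% in IV_AZ_if. In every library of the annual zone the rises held less, and the falls more, than in any library of IV_PZ, with the short internode between IV_PZ and the internode near the inflorescence. Among targets of at least 300 bases, rescaled to their own total, the means for the rises were 3.23% in II_PZ, 17.6% in III_PZ and 18.005% in IV_PZ, and for the falls 35.2%, 11.4% and 9.13%.

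**Figure D4:**
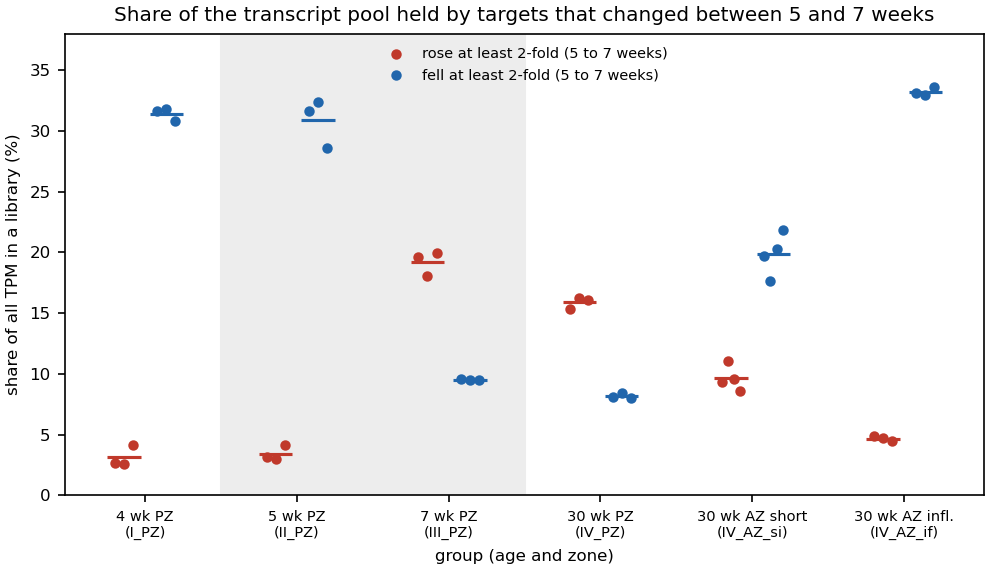
Each point is 1 library and each bar a group mean, with the share of all TPM on the y axis and the 6 groups on the x axis. Red is the list of targets that rose and blue the list that fell by at least 2-fold between 5 and 7 weeks, and the grey area marks the libraries that chose the lists. Blue exceeds red in every library of 4 and 5 weeks and of the annual zone, and red exceeds blue in every library of III_PZ and IV_PZ.

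Single targets were also tested in 3 comparisons between groups other than II_PZ and III_PZ. These share the IV_PZ libraries with each other, and the estimate of spread and the filter with the comparison that chose the lists, since all libraries were fitted together. Between IV_PZ and I_PZ, 34.2% of all tested targets were higher at 30 weeks and 38.2% lower. Of the 2733 rises, 1783 (65.2%) were higher in IV_PZ than in I_PZ and 261 (9.55%) lower, while of the 3296 falls 2965 (89.96%) were lower and 76 (2.31%) higher. The 1783 made up 22.2% of all targets higher in IV_PZ there, and the 2965 made up 33.0% of all that were lower. Without I_PZ replicate 3, 2026 of 2933 rises were called higher (69.1%) and 203 lower. Of 3109 falls, 2788 were called lower (89.7%) and 64 higher. The 2026 and the 2788 made up 25.9% of all higher and 32.1% of all lower calls. Over all 23904 targets of that fit, 32.7% were higher and 36.3% lower.

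Against the internode near the inflorescence, 33.7% of all tested targets were higher in IV_PZ and 36.5% lower. There 1612 of the rises (59.0%) were higher in IV_PZ and 378 (13.8%) lower, and 2818 of the falls (85.5%) were lower and 96 (2.91%) higher. They made up 20.3% and 32.8% of all targets higher or lower in IV_PZ. The shares were less uneven against the short internode, where 25.7% of all tested targets were higher and 31.4% lower. Of the rises 1146 (41.9%) were higher and 541 (19.8%) lower, and of the falls 2183 (66.2%) were lower and 167 (5.07%) higher. These are 18.97% and 29.5% of the respective calls.

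The lists were also chosen in a fit of the 6 libraries alone and tested in a separate fit of the other 13. Of 2630 rises tested there, 1773 (67.4%) were higher in IV_PZ than in I_PZ, 1621 (61.6%) than in IV_AZ_if and 1131 (43.0%) than in IV_AZ_si. Of 2907 falls, 2650 (91.2%), 2521 (86.7%) and 1991 (68.5%) were lower. Over all 23101 targets of that fit, 34.5%, 34.6% and 26.1% were higher and 38.3%, 36.2% and 30.9% lower. On the scale of the TPM with targets of at least 300 bases, the lists themselves changed in size, with 2135 falls. From those lists 2797, 2638 and 1821 rises were higher, and 1928, 1837 and 1472 falls were lower. The shares over all targets on that scale are not given here, so these counts show no change in carry-over. In the joint and the separate fit, the share of falls called lower exceeded the share of rises called higher in each of the 3 comparisons. All tested targets, too, were called lower more often than higher in each comparison, and the difference between the lists was not tested.

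**Figure D5:**
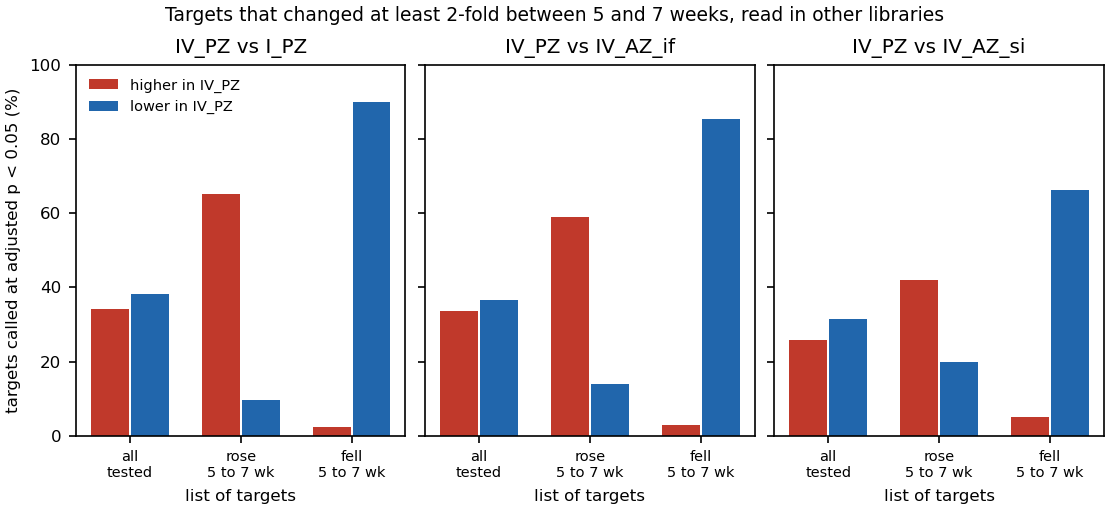
Bars give the percentage of targets called higher (red) or lower (blue) in IV_PZ, for all tested targets and for those that rose or fell by at least 2-fold between 5 and 7 weeks, in 3 comparisons of other groups from the fit of all 19 libraries. The falls were called lower in 89.96%, 85.5% and 66.2%, and the rises higher in 65.2%, 59.0% and 41.9%.

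Changes of at least 8-fold were read in the same way. Over all tested targets, 34.2% were higher and 38.2% lower in IV_PZ than in I_PZ. These shares were 33.7% and 36.5% against IV_AZ_if, and 25.7% and 31.4% against IV_AZ_si. Of 981 rises of at least 8-fold, 507 (51.7%) were higher in IV_PZ than in I_PZ and 87 (8.87%) lower, and 518 (52.8%) were higher and 128 (13.05%) lower in IV_PZ than in IV_AZ_if. Of 897 falls of at least 8-fold, 833 (92.9%) were lower in IV_PZ than in I_PZ and 7 (0.78%) higher, and 762 (84.9%) were lower in IV_PZ than in IV_AZ_if. Against IV_AZ_si, 375 of these rises (38.2%) were higher and 170 (17.3%) lower, and 519 of these falls (57.9%) were lower and 37 (4.12%) higher. Without I_PZ replicate 3, 629 of 1038 rises (60.6%) were higher in IV_PZ than in I_PZ and 41 lower. Of 892 falls, 815 (91.4%) were lower and 6 higher. Over all 23904 targets of that fit, 32.7% were higher and 36.3% lower. Detection was counted as well: 974 to 980 of the 981 rises had a count in the libraries of III_PZ, and 806 to 840 in those of IV_PZ. Of the 897 falls, 878 to 895 had a count in II_PZ, 561 to 595 in III_PZ and 393 to 413 in IV_PZ. Over all 34220 targets, 23753 to 24297 had a count in II_PZ, 23857 to 24846 in III_PZ and 23154 to 23361 in IV_PZ. The lists were chosen on II_PZ and III_PZ, so only the numbers in IV_PZ come from other libraries.

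The share of targets called differed between classes of coding length. In the longest of 4 length classes of nearly equal size (1593 to 15249 bases) 34.9% rose and 28.8% fell, and in the shortest class (99 to 582 bases) 17.2% rose and 27.2% fell. From the shortest to the longest class, 10.1%, 13.1%, 12.9% and 10.3% rose by at least 2-fold, with no ordered trend, and 15.5%, 15.9%, 14.7% and 9.88% fell by as much. The median log2 fold change was 0.06 in the longest and -0.08 in the shortest class with TMM, and 0.31 and 0.17 on the TPM scale. Longer targets collect more counts at the same level, and the part of depth in the share that was called was not tested.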

How the data were processed

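Stranded TruSeq mRNA libraries were made from total RNA, per the labels' protocols. Reads were processed with bcl2fastq and kallisto, per the submitters' processing notes (versions, transcript reference and build not given in the sources used here). The authors deposited, per library, the estimated count and TPM of 34220 targets, with length and effective length, per the file headers, and a TPM table of 30158 of them, with the same values. Lengths are coding lengths, since 99.5% divide by 3.

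Estimated counts, rounded to whole numbers, were tested with edgeR 4.0.16 in R 4.3.3 (TMM, minimum count 10, minimum total 15, quasi-likelihood test, group as the only term, all 19 libraries in 1 fit). P-values were adjusted by Benjamini-Hochberg over 23528 targets and called at 0.05. Standard errors came from the test statistic, and 95% intervals use the normal quantile. Total counts were 21032841 to 27999048 per library. Floors of 3 counts over a group cover counting error only. Replicates differed by more than sampling noise (chi-square per degree of freedom at least 7.64). Targets said to have shared reads had, in any library, a count that missed a whole number by over 0.001 (5589 tested targets).

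Among called targets with non-overlapping libraries and at least 5 TPM in the higher group, the 5 largest rises and falls by fold were named, the 5 by difference in TPM, and the 3 by fold with at least 50 TPM in the lower group. The 5 most abundant targets and the 3 most abundant not called were added. Members, lists and alternatives were chosen with earlier results of these data known. Gene lists prepared by name could not be matched to identifiers and were not used. The test was tested on simulated data. Alternatives were RLE and TPM-scale size factors, no filter, DESeq2 1.42.0, limma-trend 3.58.1 on log2(TPM + 1) or log2(TPM + 0.1) where 3 libraries reached 1 TPM, and on log2(TPM + 1) of all targets, only the 2 groups, a replicate block, a 2-fold minimum, targets of the TPM table, no shared reads, and each library left out. Chosen after the data were seen were targets of at least 300 bases, alone and on the TPM scale, separate fits of the 6 libraries and of the other 13, and the named targets of at least 500 bases.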

Additional observations from a re-analysis of the deposited data

Results flagged for a closer look

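The report's values in IV_AZ_si, the only group of 4 libraries, were checked for single libraries distant from the other 3. Of 38 values, 3 stood out, all for targets that had no count at 5 weeks, and chance marks about 1 group in 20. Replicate 2 was highest each time, and its distance to the nearest other library filled 0.941 of the group's range for Aa_G731640.h1, at 5.70, 81.2, 5.57 and 1.00 TPM in replicates 1 to 4. This share was 0.942 for Aa_G103050.h1, at 0.798, 11.9, 0.539 and 0.111 TPM. For Aa_G101340.h1 it was 1, at 0.105 TPM in replicate 2 and 0 in the others.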

How the results depend on the processing

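Of 1030 alternative values for the 33 called single targets, 1026 kept direction and call. Nearly all of these targets were chosen for being called without overlap, and most alternatives left out 1 library of the same data. The choice thus favoured this agreement. The 3 targets not called stayed so in 91 of 92, and Aa_G820830.h1, near 0, took the other sign in 20 of them. Counts of calls are listed below where they moved by over 1.5 times, and shares and levels where they moved by over 1 SD. The balance of rises and falls can turn within these limits, as it did on the TPM scale. Where values moved and no construction below accounts for it, the cause was not tested. With limma-trend on log2(TPM + 1), calls of at least 2-fold lower, 8-fold higher and 8-fold lower were 2048, 494 and 346, and with no filter 2041, 492 and 345. A 2-fold minimum left 6029 calls. On the TPM scale with targets of at least 300 bases, 9494 were higher and 4392 lower (2135 by at least 2-fold). Rises higher in IV_PZ were then 2797 against I_PZ, 2638 against IV_AZ_if and 1821 against IV_AZ_si. Falls lower in IV_PZ were 1928 and 1837 against the first pair, with 49 falls higher against I_PZ, the same number as without shared reads. These counts come from lists chosen anew in each setting, so they move with the size of the list.

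Fewer targets lowered the number with a count at 5 and 7 weeks to 21546 and 21935 (at least 300 bases), 22908 and 23382 (TPM table) and 18207 and 18571 (no shared reads). The upper 50% of the pool was then held by 897 and 1295 (at least 300 bases) or 540 and 762 targets (no shared reads), and the 100 most abundant held 21.9% and 19.02% or 29.5% and 26.9%. At 300 bases or more, pairs within 7 weeks differed by 5.22%, and 25 targets lost all counts at 7 weeks. Leaving out 1 library gave 6.46% to 12.4% within 5 weeks, 6.66% to 8.90% within 7 weeks, and 54 to 89 targets without a count at 7 weeks. Calls from 5 to 7 weeks then ranged from 12396 to 13800.

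With the replicate block 6071 targets were higher and 6224 lower, and Aa_G1107360.h1 was called (-0.37, edgeR adjusted p = 0.0228). Deviations of libraries with the same number correlated at 0.0143, 0.0128 and 0.0302 across targets, and no library correlated best with its own number, so the numbers were not taken as pairs. Aa_G392180.h1 lost its call in limma-trend (adjusted p 0.0742 to 0.556), as did Aa_G117410.h1 with no filter (adjusted p = 0.0997). Short targets with effective lengths of a few bases limit what their TPM can show.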

Other observations

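Targets with consecutive identifier numbers (10 apart) tended to change together. The files do not say whether the numbers follow position in the genome. Of 585 tested targets that rose by at least 8-fold and were followed by a tested target with the next number, 64 (10.9%) had a follower that also rose by at least 8-fold, against 3.96% of the followers in all 15322 such pairs. For falls of at least 8-fold it was 71 of 542 (13.1%), against 3.38%. Without targets that share reads these shares were 7.83% against 3.75% for rises and 10.8% against 3.36% for falls. For changes of at least 2-fold the contrast was smaller, at 17.5% against 11.4% for rises and 19.03% against 13.7% for falls. These are descriptions across targets, which are not replicates.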
